A study of Homo sapiens with 4 samples.

Results

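The mRNAs of 10 glycolytic enzymes, GPI, PFKL, PFKP, ALDOA, TPI1, GAPDH, PGK1, ENO1, PKM and LDHA, were examined for enrichment by an antibody against N7-methylguanosine (m7G) in human U2OS cells. The members were taken by gene symbol: every peak that the authors named for one of the 10 genes was used, which gave 17 of 4326 peaks in immunoprecipitated (IP) replicate 1 and 18 of 4862 in replicate 2. In all, 4368 gene names carried a peak in either table, 9 of the 10 members among them. U2OS is an established line from a bone osteosarcoma. The cells had no special treatment, and the study holds 2 IP samples, made with the anti-m7G antibody from poly(A) RNA, and 2 input samples, in which no antibody was used. The labels do not say whether the 2 IP replicates came from separate cultures, so the spread between them may be technical.

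Glycolysis splits glucose into pyruvate in the cytosol and yields ATP and NADH, and lactate dehydrogenase then turns pyruvate into lactate and regenerates the NAD+ that the pathway needs. Tumour cells often run it at a high rate even with oxygen present, and several of its mRNAs are among the most abundant in cultured cells. m7G is the cap at the 5′ end of mRNA, and it has also been mapped at internal positions of mRNA. A peak of the antibody at a gene start and one inside the transcript need not be the same kind of signal. Whether a start peak comes from the cap was not tested.

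Each peak carries the authors' fold of IP over input, p-value and false discovery rate, computed separately in each replicate. A shared peak is one that overlapped a peak of the other replicate by at least 1 nt on the same strand, as mutually best partners. The tables give no read counts, so the depth behind a fold is unknown and no interval can be set around it. The spread between replicates stands in for the error. Over all 2642 shared peaks the absolute difference between replicates had a median of 0.30 on the log2 scale and a 95th percentile of 1.28. Over the 538 whose lower fold was under 2 these were 0.21 and 0.93. Of 10 mesenchymal and osteosarcoma markers, 6 carried a shared peak, COL1A1, COL5A1, COL6A1, FN1, SPARC and VIM, while COL1A2, RUNX2, SP7 and ALPL carried no peak. None of 5 haematopoietic or 3 hepatocyte markers had a peak in either replicate, and of 5 epithelial and 4 neuronal markers KRT18 and NEFL had a shared one. A peak needs both RNA and enrichment, so a missing peak does not show that a gene is silent.

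At gene starts the sequence under the peaks can be shown. RefSeq start windows run from 250 nt before an annotated start, and the 3 below belong to the members whose peaks reached into such a window. Capitals mark bases under a peak block. Sequences are from RefSeq on GRCh38.p14, the assembly of the gene table, and the submitters' processing notes name GRCh38. The PFKL window covers chr21:44299803-44300082 on the plus strand and the ENO1 window chr1:8878657-8878936 on the minus strand, each up to 30 nt past the start. For TPI1 the first 30 bases of the peak are given, chr12:6867509-6867538 on the plus strand.
PFKL: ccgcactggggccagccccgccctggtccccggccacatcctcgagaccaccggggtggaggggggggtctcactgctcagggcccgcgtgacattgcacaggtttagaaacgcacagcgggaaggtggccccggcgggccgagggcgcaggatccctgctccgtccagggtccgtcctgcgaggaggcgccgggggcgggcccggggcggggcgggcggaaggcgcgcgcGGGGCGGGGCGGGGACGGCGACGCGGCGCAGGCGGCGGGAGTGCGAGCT
ENO1: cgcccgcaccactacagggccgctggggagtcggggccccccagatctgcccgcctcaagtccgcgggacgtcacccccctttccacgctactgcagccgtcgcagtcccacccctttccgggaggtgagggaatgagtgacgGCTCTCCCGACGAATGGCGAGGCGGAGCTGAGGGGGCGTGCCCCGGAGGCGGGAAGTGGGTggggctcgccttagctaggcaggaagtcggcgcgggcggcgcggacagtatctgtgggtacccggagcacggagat
TPI1: TGGGCAGTGGCCGCGACTGCGCGCAGACAC

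In the PFKL window the capitals begin 19 nt before the annotated start and are 85.7% G or C and 61.2% G. The ENO1 capitals, 61 bases found under a peak in replicate 1 alone, all lie before the annotated start and are 73.8% G or C and 49.2% G. The median over 34943 windows of 300 nt was 58.7% G or C, and the full windows of PFKL and ENO1 had 78.3% and 69.7%. GANGAN, a GA-rich pattern of the kind reported for internal m7G, was searched on both strands, counting overlapping matches. The printed PFKL window held 1 match on the sense strand, outside the peak bases, and 1 on the other strand. It holds only 49 of the 151 bases of the PFKL peak, so most of that peak was not searched. The printed ENO1 window held 1 on the sense strand, inside the peak bases. The full 300 nt window of the first TPI1 start held 2 on the sense strand and 1 on the other, but the 30 printed TPI1 bases held none. Of all windows of the same 280 nt, 63.7% held GANGAN on the sense strand and 87.4% on either, and of those of 300 nt 66.8% and 89.2% did.

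Enrichment was found on most of the 10 mRNAs, at low folds. A peak was present on 8 of the 10 in replicate 1 and on 9 in replicate 2, against 15.9% and 17.4% of 20056 annotated protein-coding genes. A shared peak was carried by 7 of the 10, PFKL, ALDOA, TPI1, GAPDH, ENO1, PKM and LDHA, against 10.5% of protein-coding genes. Of the 9 members with a peak in either replicate this is 77.8%, against 48.2% of all gene names with one. These shares are not adjusted for expression, which the tables do not give. GPI and PGK1 had peaks that were not shared, and PFKP had no peak in either table. The strongest shared peak of a member, taken by the lower of its folds, had a median of 1.59-fold over the 7 genes, against 4.59-fold over all 2105 genes with a shared peak. It was under 2-fold in both replicates for 5 of the 7, against 9.26% of all genes with a shared peak. A shared peak of at least 2-fold in both replicates was left on PFKL and TPI1, that is 2 of 10, against 8.81% of protein-coding genes.

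**Figure D1:**
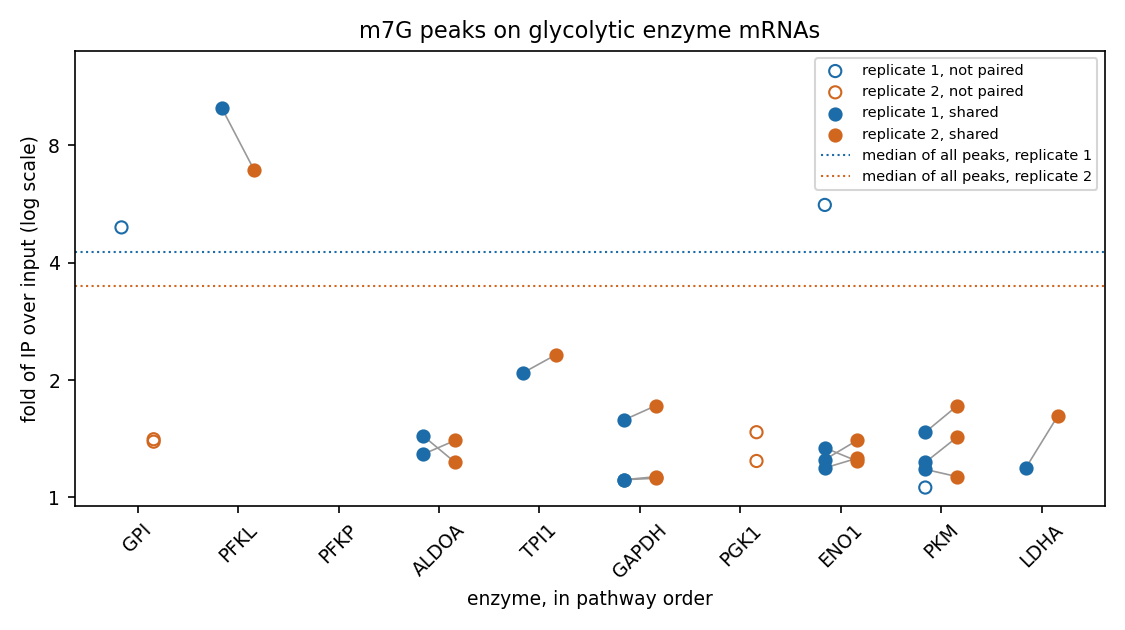
Fold of IP over input (log scale) of every peak on the 10 mRNAs, in pathway order. Blue is replicate 1, orange replicate 2, filled points are shared peaks joined by a grey line, open points are peaks without a partner, and dotted lines are the medians of all peaks (4.27 in replicate 1 and 3.48 in replicate 2). PFKL lies above both medians, as do single peaks of GPI and ENO1 in replicate 1, and the remaining points lie below both.

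The upper steps of the pathway prepare glucose for cleavage. GPI, the isomerase that turns glucose 6-phosphate into fructose 6-phosphate, had a different place in each replicate. In replicate 1 its only peak, of 91 nt at 4.93-fold, lay at chr19:34400884-34400974, 1484 nt from the annotated gene end. In replicate 2 its peaks had 1.39- and 1.41-fold and lay 7089 and 33587 nt from the gene start. GPI therefore had a peak in both tables and no shared one. All 3 were weak, with log10 p of -3.42 in replicate 1, and -4.15 and -4.66 in replicate 2, and only 3.8% of replicate 1 peaks had a weaker p than the one at 4.93-fold.

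PFKL, the liver-type subunit of phosphofructokinase, which catalyses the committed step of glycolysis, had the highest shared fold of the list. Its peak had 9.96-fold in replicate 1 and 6.92-fold in replicate 2, a mean of 3.05 ± 0.37 on the log2 scale (SD, n = 2). The peak had the same limits in both tables, a single block of 151 nt at chr21:44300034-44300184, and its midpoint lay 56 nt inside the annotated start. It is the peak whose first bases are printed above. The replicates differed by 0.53 on the log2 scale, more than 72.1% of all shared peaks did and less than the 95th percentile. Its p-values were weaker than the medians of all peaks, with log10 p of -5.05 and -4.60 against -5.67 and -5.92. PFKL fell out of the shared list when a false discovery rate of at most 0.001 was required in both replicates. PFKP, the platelet-type subunit of the same enzyme, had no peak, although RefSeq lists 4 start windows for it.

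ALDOA, the aldolase that cleaves fructose 1,6-bisphosphate, had 2 shared peaks in the later part of its gene. The first, with 1.29- and 1.40-fold, spread over 3 blocks, and its midpoint lay 4374 nt from the gene start in replicate 1 and 4389 nt in replicate 2. The second had 1.44- and 1.23-fold, and its midpoint lay 284 and 446 nt from the gene end. Which of both was stronger differed between replicates. The annotated span of LOC112694756, a protein-coding locus, also covers both, so they cannot be assigned to ALDOA alone.

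TPI1, which interconverts the triose phosphates, had the second-highest shared fold. Its only peak had 2.09-fold in replicate 1 and 2.32-fold in replicate 2, a mean of 1.14 ± 0.11 on the log2 scale (SD, n = 2), with log10 p of -33.2 and -52.9. It ran from chr12:6867509 over 4 blocks, of 173, 124, 85 and 66 nt in replicate 1, and the first 3 had the same limits in replicate 2, where the last was 6 nt. The first block began 89 nt inside the annotated gene span and covers the first of 2 RefSeq start sites in the start windows. Because the other blocks lie further in, the midpoint fell 1494 and 1464 nt from the gene start.

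The later steps harvest energy. GAPDH, the dehydrogenase that makes NADH and the usual reference mRNA in expression studies, had 3 shared peaks. The peak at its start had 1.58- and 1.72-fold, with blocks of 138 and 42 nt in replicate 1 and of 197 and 42 nt in replicate 2, where it began before the annotated gene start and ran across it. The other peaks, 3217 nt from the start and at the gene end, had 1.11- and 1.12-fold, and 1.11- and 1.13-fold. The start peak thus stood above both others in each replicate, by more than the 0.12 by which it differed between replicates on the log2 scale. These small folds came with strong p-values: log10 p was -21.2 and -54.8 at the start, and between -17.3 and -30.0 at the other peaks. The 1.12 at the internal peak was the lowest fold of the replicate 2 table, held also by a SPARC peak.

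PGK1, the kinase that makes the first ATP of the pathway, had no peak in replicate 1. In replicate 2 it had one at 1.24-fold (log10 p -3.49) and one at 1.47-fold (log10 p -9.18), 9877 and 20654 nt from the gene start.

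ENO1, the enolase that forms phosphoenolpyruvate, had 3 shared peaks inside the gene, at 1.34- and 1.24-fold, 1.19- and 1.26-fold, and 1.25- and 1.40-fold. They spread over 9 blocks in each replicate, and 3 of these had the same limits in both. Replicate 1 also held the peak printed above, 61 nt at chr1:8878733-8878793, at 5.63-fold with log10 p of -4.16. It was the highest fold on ENO1 and lay at positions -107 to -47 relative to the annotated start. Replicate 2 had no peak there.

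PKM, the pyruvate kinase whose alternative splicing gives the form common in tumours, had the most significant peak of the list. It had 1.47-fold in replicate 1 and 1.72-fold in replicate 2, with log10 p of -51.2 and -106, and covered 777 and 717 nt, of which 717 were common. In replicate 2, 99.0% of all peaks had a weaker p, yet only 14.1% had a lower fold. The 151 and 271 nt blocks inside it had the same limits in both replicates. Toward the gene end lay 2 further shared peaks: one of 210 nt had 1.23- and 1.43-fold, with its midpoint 373 nt from the end in both replicates, and the other had 1.18- and 1.13-fold. One more replicate 1 peak, at 1.06-fold, was the lowest fold of that table. It overlapped the last of these replicate 2 peaks, which had a better partner.

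LDHA, which makes lactate, had 1 shared peak of 3 blocks, with 1.19-fold in replicate 1 and 1.62-fold in replicate 2. This difference, 0.45 on the log2 scale, was larger than in 80.7% of shared peaks with a lower fold under 2, and log10 p was -5.39 and -17.9. The blocks of 118 and 60 nt had the same limits in both replicates, while the first covered 2 nt in replicate 1 and 122 nt in replicate 2.

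**Figure D2:**
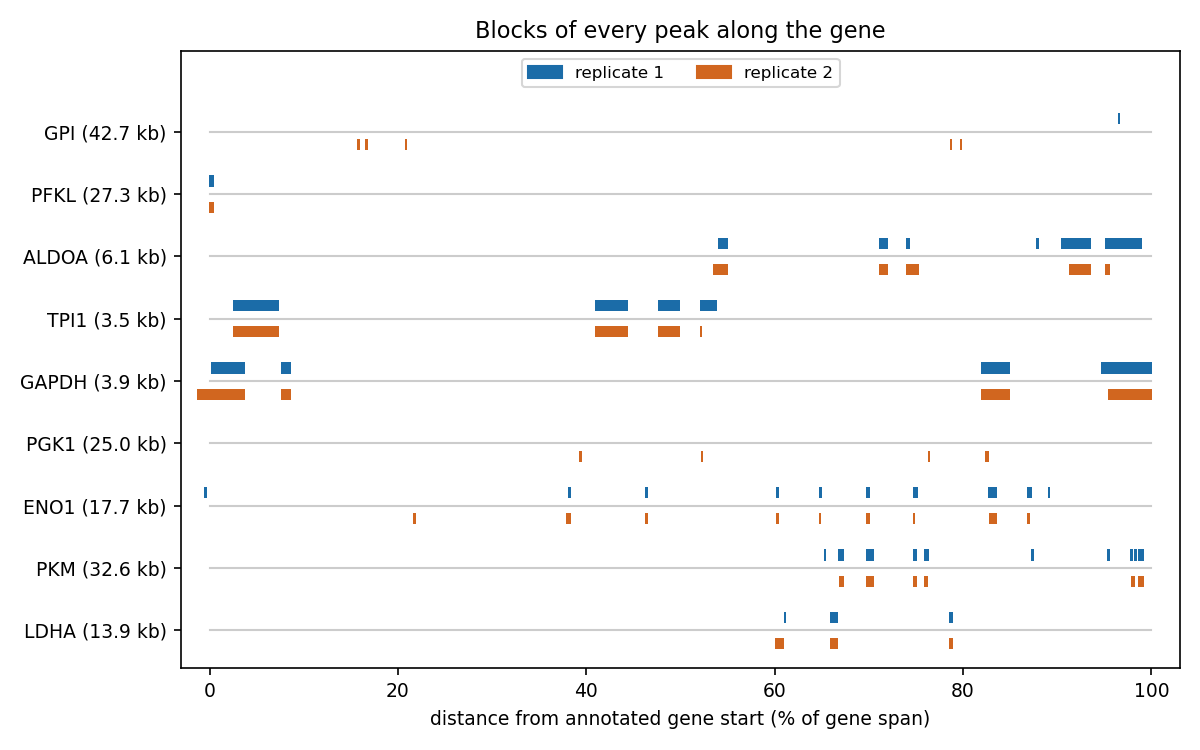
Blocks of every peak along each gene, as distance from the annotated start in percent of the gene span (its length is given beside the name), with replicate 1 in blue above the line and replicate 2 in orange below it. Blocks at or near the start are seen on PFKL, TPI1 and GAPDH in both replicates and on ENO1 in replicate 1, and those of PKM, LDHA and ALDOA lie in the later part of the span. PFKP, with no peak, is not drawn.

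By position, the strongest shared peak had its midpoint within 200 nt of the annotated gene start for PFKL and GAPDH, 2 of 7, against 26.9% of all genes with a shared peak. A block lay on a RefSeq start window in 3 of 8 members with a peak in replicate 1 (PFKL, TPI1 and ENO1) and in 2 of 9 in replicate 2 (PFKL and TPI1). Over all genes with a peak and a window the shares were 29.8% and 27.8%. The GAPDH start peak is not among these, since the 1 window listed for GAPDH belongs to a start further in. The midpoint was in the last 40% of the gene span for 13 of 17 member peaks in replicate 1 and 12 of 18 in replicate 2, against 44.4% and 48.6% of all peaks with a matched gene. Distances are genomic and include introns. Exon, intron and UTR annotation was not used here.

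Several peaks on 1 mRNA were frequent: GAPDH, ENO1 and PKM had 3 shared peaks each, that is 3 of the 7, where 3.99% of genes with a shared peak had 3 or more. The PKM pair at 1.18- and 1.13-fold overlapped by only 61 nt, 40.7% of its replicate 1 peak and 40.4% of its replicate 2 peak. More than 1 block was listed for 10 of 17 member peaks in replicate 1 and 13 of 18 in replicate 2, against 30.8% and 34.7% of all peaks. This is not particular to the members: the shares were 81.1% and 79.3% of peaks on cytosolic ribosomal protein genes. On tubulins they were 12.5% and 10.0%. Of 39 member blocks in replicate 1 and 41 in replicate 2, 15 had both limits the same to the base. Identical blocks were not counted over all peaks, so 15 cannot be called many or few. In sum, 988 nt of PKM, 572 nt of ENO1, 481 nt of GAPDH, 388 nt of TPI1, 330 nt of ALDOA, 180 nt of LDHA and 151 nt of PFKL lay under a peak pair in both replicates.

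Fold and significance were ordered differently. Of the 17 member peaks in replicate 1, 13 had a fold under 2, as did 16 of 18 in replicate 2, against 13.9% and 21.4% of all peaks. Yet the median log10 p of member peaks was -12.4 and -18.4, against -5.67 and -5.92 over all peaks. It was also stronger than over all peaks on cytosolic ribosomal protein genes, at -8.98 and -11.65, and on tubulins, at -10.68 and -16.5. PFKL, with the highest shared fold, had the weakest log10 p in both replicates among the strongest shared peaks of the 7 genes. Of the 23 replicate 1 peaks in the whole table with a fold under 1.2, 6 were on members, and of the 15 in replicate 2, 3 were. That limit was chosen after the values were seen.

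**Figure D3:**
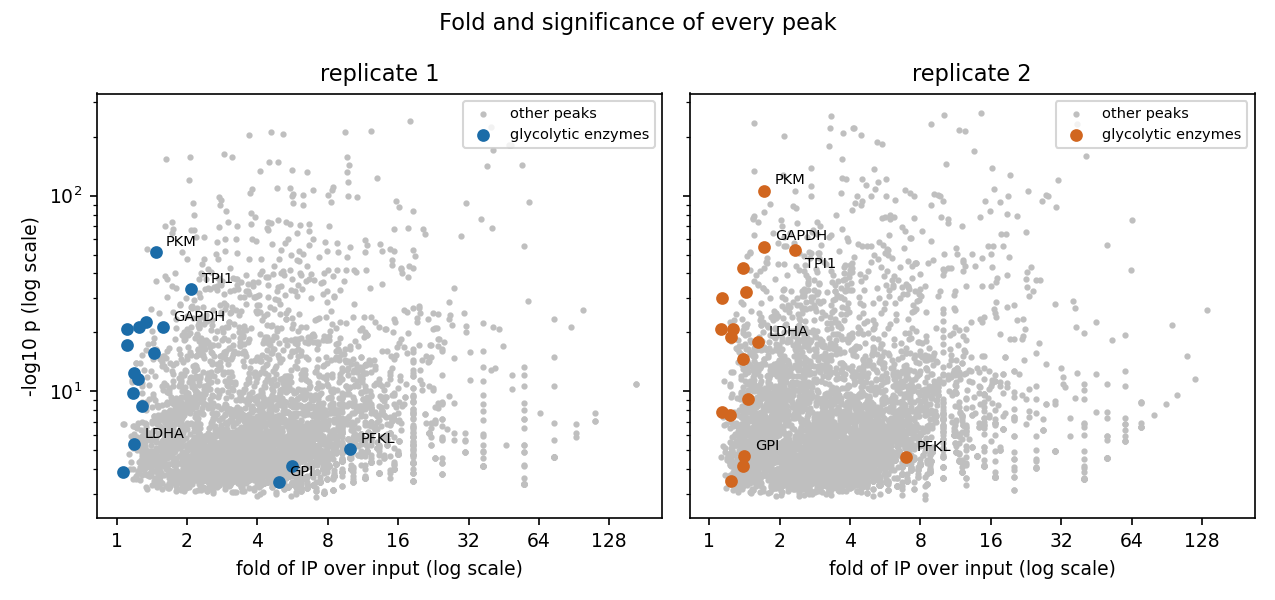
Fold of IP over input and -log10 p, both on log scales, for every peak of each replicate, with member peaks in colour and the rest in grey. Peaks with -log10 p of 300 or more, 8 in each replicate, are outside the plot. Most member peaks line the low-fold edge and reach high significance there for PKM, TPI1 and GAPDH. PFKL lies at high fold and low significance, and in replicate 1 single peaks of GPI and ENO1 also lie away from that edge at low significance.

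The folds of members were close between replicates. Over their 14 shared peaks the absolute log2 difference had a median of 0.135 and a highest value of 0.53, at PFKL, and 12 of the 14 lay under the 0.30 that is the median of all shared peaks. The fold was under 2 in both replicates for 12 of the 14, the class whose differences were smaller over all genes too. Over all shared peaks with a lower fold under 2 the median difference was 0.21, so 0.30 is a lenient mark for most members. Replicate 2 gave the higher fold for 10 of the 14 and replicate 1 for 4. The same split over all shared peaks was not counted, so no trait of the members can be read from it.

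**Figure D4:**
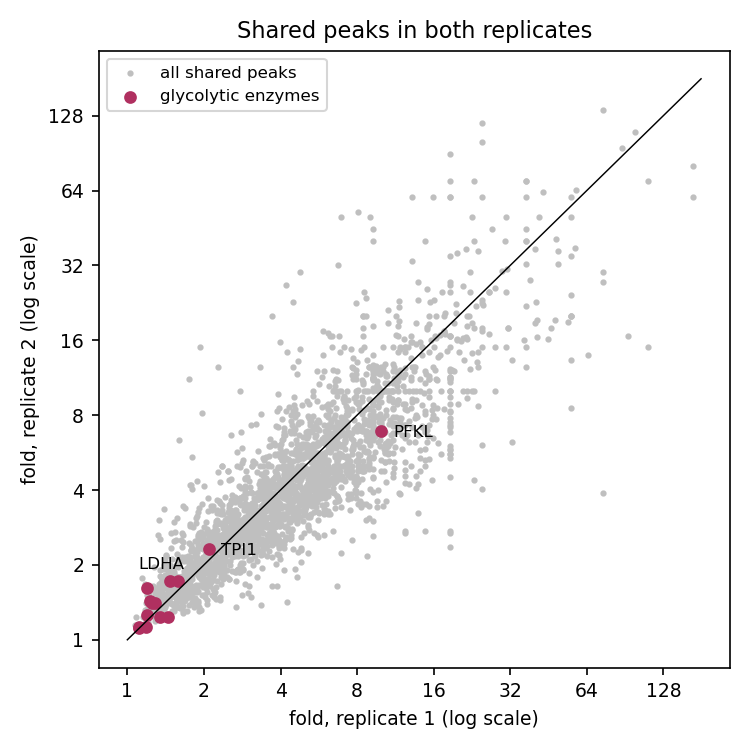
Fold in replicate 1 and in replicate 2 (log scales) of all shared peaks in grey and of the 14 on members in red. The line marks equal folds. Members cluster at the low end near the line, apart from TPI1 at 2.09 and 2.32 and PFKL, which lies below the line at 9.96 and 6.92.

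Some members have many processed copies elsewhere in the genome, to which reads can also match. RefSeq lists 65 GAPDH pseudogenes by symbol, 6 for LDHA, 5 for PKM, 4 each for ENO1 and TPI1 and 2 each for ALDOA and PGK1. None of them was named for a peak in either table. The deposited peaks are those of mRNAs, however, so pseudogenes may have been left out beforehand. Their absence therefore does not show that they lacked signal. The labels do not say how reads with several matches were counted, so the values of these genes are uncertain.

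The other genes of glucose metabolism were taken from a list of 85. A shared peak was present on 9 of them (10.6%), against 10.5% of protein-coding genes. They included BSG, HIF1A, LDHB, PGD, PHGDH, SDHC, SDHD and UGP2. A further 14 had a peak in 1 replicate alone. Peaks without a shared partner were common in general: of all 4368 gene names with a peak, only 48.2% had a shared one. The strongest shared peaks of the 9 genes had a median of 2.87-fold, and the highest were not in glycolysis. UGP2, which makes UDP-glucose for glycogen, had 21.6- and 20.0-fold with its midpoint 69 nt from the gene start. SDHC, a membrane anchor of succinate dehydrogenase, had 21.6- and 18.3-fold, 394.5 nt from the gene end on average. SDHD, the other membrane anchor of that complex, had 10.2- and 4.76-fold. PGD, the enzyme of the pentose phosphate pathway that makes ribulose 5-phosphate, had 1.56- and 1.78-fold.

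PHGDH, the first enzyme of serine synthesis from 3-phosphoglycerate, had 2.25- and 3.66-fold with log10 p of -31.8 and -103. HIF1A, the oxygen-regulated factor that activates many glycolytic genes, had 2.33- and 2.09-fold. BSG, the chaperone of the lactate transporters, had 3 shared peaks between 1.28- and 1.69-fold. LDHB, the other main subunit of lactate dehydrogenase, had 1.15- and 1.23-fold, close to the 1.19 of LDHA in replicate 1 and under its 1.62 in replicate 2.

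Cytosolic ribosomal protein and tubulin genes were set beside the enzymes, and their expression is not known here. The median of the strongest shared peak was 1.59-fold for the 7 glycolytic enzymes. It was 1.58-fold for the 31 of 86 ribosomal protein genes that had one and 2.98-fold for 5 of 21 tubulins. In replicate 1, peaks under 2-fold made up 76.5% of those on glycolytic enzymes, 75.7% on ribosomal protein genes and 62.5% on tubulins. In replicate 2 they were 16 of 18 peaks on glycolytic enzymes, 47 of 58 on ribosomal protein genes and 5 of 10 on tubulins. No test was made between these groups.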

How the data were processed

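Libraries of m7G-enriched and input poly(A) RNA from U2OS cells were sequenced, per the labels' protocols. The submitters' processing notes name STAR and GRCh38, and no source used here names the peak caller. The authors deposited 1 peak table for each IP replicate. Per the file headers its columns hold the p-value of each peak, the log10 of it and of the false discovery rate (treated as a score), and a fold of IP over input, a linear ratio whose scaling is not stated. The weakest false discovery rates were 0.049 and 0.0479. Counts are not part of these tables, so depth is unknown.

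Shared peaks were mutually best overlaps of blocks, tested on simulated data. Midpoints are the middle base of the joined blocks. Names were matched to RefSeq of GRCh38.p14 within 2000 nt (99.9% and 99.8% of peaks). No test was made, since there are 2 replicates and members are not replicates. Members, lists and alternatives were chosen with earlier results of these data known. All 10 members are named, and of the other genes of glucose metabolism every one with a shared peak, except 1 that is not reported here. Alternatives were stricter overlaps, false discovery rates and folds, and each replicate alone. Analysis used Python 3.11.15, numpy 2.4.6, pandas 2.3.3 and matplotlib 3.10.9.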

Additional observations from a re-analysis of the deposited data

How the results depend on the processing

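With stricter overlaps or false discovery rates, the 7 members with a shared peak numbered 6 or 7. A peak anywhere on the gene in both replicates was found for 8, and any peak in replicate 2 alone for 9 and in replicate 1 alone for 8. These looser rules need no overlap between replicates, so they could not lower the count. Requiring at least 2-fold in each replicate left 2, PFKL and TPI1. For the other genes of glucose metabolism, 9 became between 6 and 9 with both replicates. It became 16 without either replicate 1 or replicate 2, where any peak counted. The median log2 fold of the strongest shared peak, 0.67, became 0.42 with the median of all shared peaks of a gene. With 1 replicate left out, peaks that were not shared counted too. The median of the strongest peak was then 0.70 over 9 members in replicate 2 and 0.86 over 8 in replicate 1. The count of members with the strongest shared peak near the gene start, 2, was 2 or 3 under the other alternatives. It was 1 with the nearest RefSeq start, an alternative added after the data were seen. It fell to 1 because the only window listed for GAPDH is not at its gene start. For single genes, the log2 fold of ENO1 was 2.49 without replicate 2 against 0.40, owing to the peak before its start, and ALDOA had 0.53 against 0.43. The share of gene names with a shared peak, 48.2%, lay between 35.7% and 53.6%. No paired analysis was possible because the input samples enter only through the authors' peak calls. Depth is unknown, so how far it limits the low folds cannot be stated.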
